A study of Mus musculus with 6 samples.

Results

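The genes described here are 36 genes of protein folding in the endoplasmic reticulum (ER) and of the unfolded protein response, among 18194 genes measured in mouse cumulus cells. They were listed by name for their known roles, with earlier results of these data known. All 36 were found on the arrays, 2 of them (Ero1l and Ero1lb) under the newer symbols Ero1a and Ero1b. Cumulus cells surround the oocyte in the follicle. They came from wild-type mice, of no stated strain, that were 21 days old when they received 5 IU of eCG, a gonadotropin that makes follicles grow. After 46 h under eCG, 3 samples were taken with no hCG (hCG-0h), and 3 others followed 6 h under 5 IU of hCG, the hormone that sets off ovulation (hCG-6h). Each sample pooled the cumulus cells of 50 cumulus-oocyte complexes handled in medium with 5 µM milrinone, which holds oocytes at an immature stage, and went on 1 array. The labels name no animals for the samples, so every p-value is set against the spread between these samples, which may be technical. Descriptions of hCG-6h samples 2 and 3 say 7 h and 8 h where their titles say 6 h. No sample without hCG was taken at the later time, so hCG and the longer time cannot be told apart. In such bulk samples, less RNA of a gene per cell and fewer cells that hold it cannot be told apart either.

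Secreted and membrane proteins fold in the ER with the help of chaperones such as BiP (Hspa5) and GRP94 (Hsp90b1), lectin chaperones that hold glycoproteins, and enzymes that form disulfide bonds. Proteins that fail to fold are pulled back into the cytosol and destroyed, a process called ER-associated degradation. When unfolded proteins build up, 3 sensors in the ER membrane respond: IRE1 (Ern1), which splices Xbp1 mRNA, PERK (Eif2ak3), which slows translation and favours ATF4, and ATF6, which is cut to release a transcription factor. Together they raise the transcripts of chaperones and of degradation factors. Cumulus cells make and secrete much matrix protein after the ovulatory stimulus, and the values below set hCG-6h against hCG-0h.

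Most of these genes did not pass the test, and the 7 that did went both ways. Hyou1, Pdia5, Edem1, Edem2 and Ern1 rose at hCG-6h, Sel1l and Derl3 fell, and 29 did not pass (limma, adjusted p under 0.05 over all genes). The share called was 19.4% of the members against 21.3% of all genes. All 36 members lay above the limit for dim genes (6.08). In a fit without the dim genes, 22.2% of the members were called against 31.6% of the genes tested there. The share was thus near that of all genes but below that of genes above the limit. By direction, 10.8% of all genes rose and 10.5% fell. At least 2-fold changes were called for Edem2 and Derl3 alone among the members, against 10% of all genes. The median log2 change, hCG-6h minus hCG-0h, was 0.063 over the members and 0.0067 over all genes, and the median size of change without its sign was 0.22 and 0.23. In 19 members, 52.8%, the 3 values of one group lay apart from the 3 of the other, 14 higher and 5 lower at hCG-6h, against 37.9% of all genes (19.3% higher and 18.7% lower). Of these 19, 12 did not pass the test. The 37.9% includes the dim genes, and the share without overlap among genes above the limit was not counted.

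**Figure D1:**
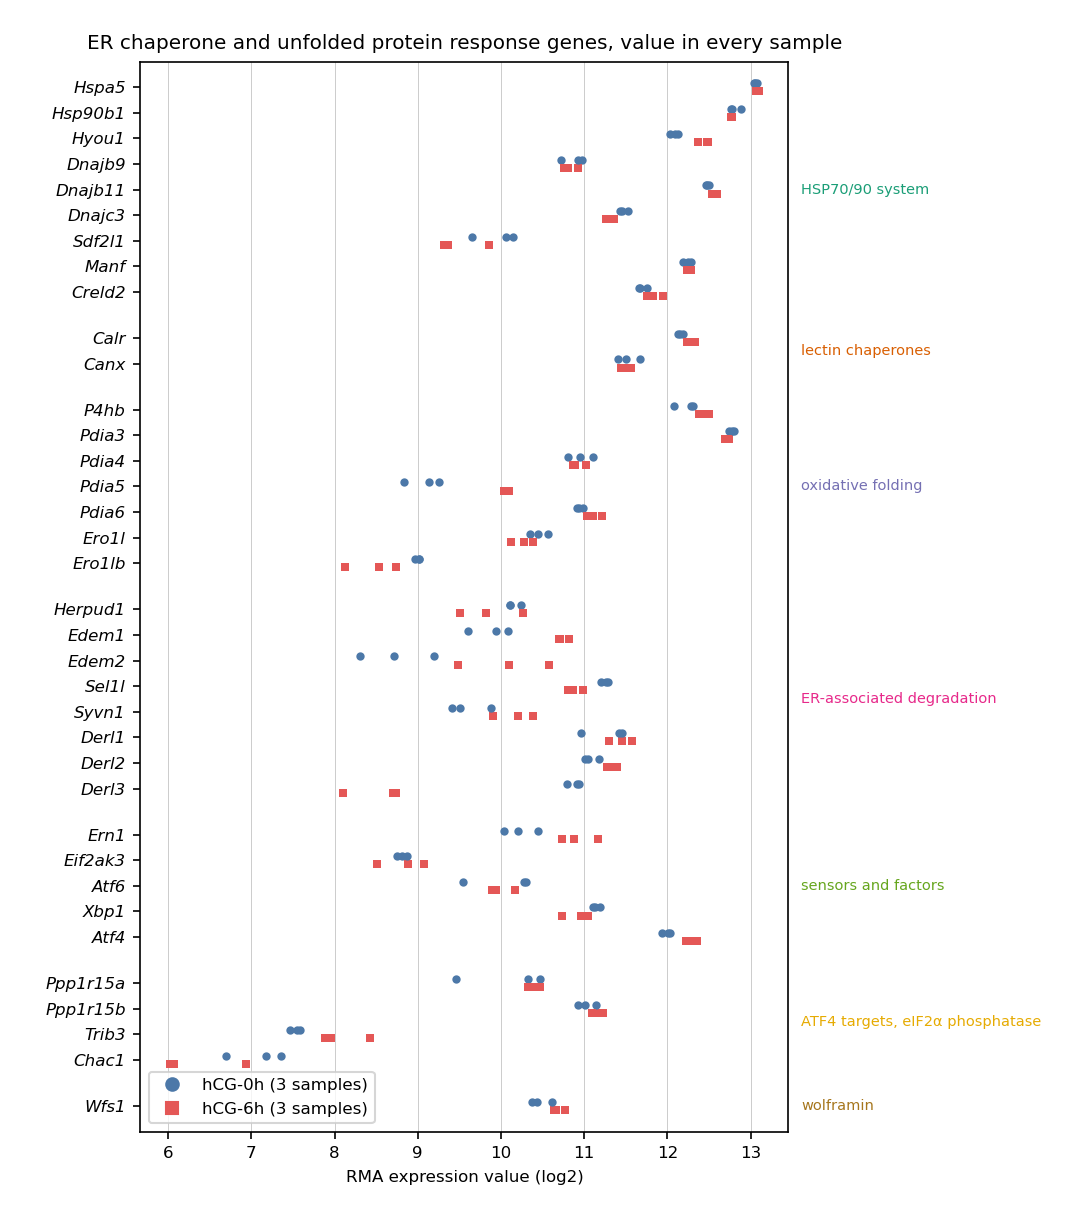
RMA expression value (log2, horizontal axis) of each of the 36 genes in each of the 3 hCG-0h samples (circles) and the 3 hCG-6h samples (squares), grouped by role. Derl3 is the gene whose groups lie farthest apart, near 10.88 at hCG-0h and 8.51 at hCG-6h, while both groups of Hspa5 lie on top of each other near 13.1.

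**Figure D2:**
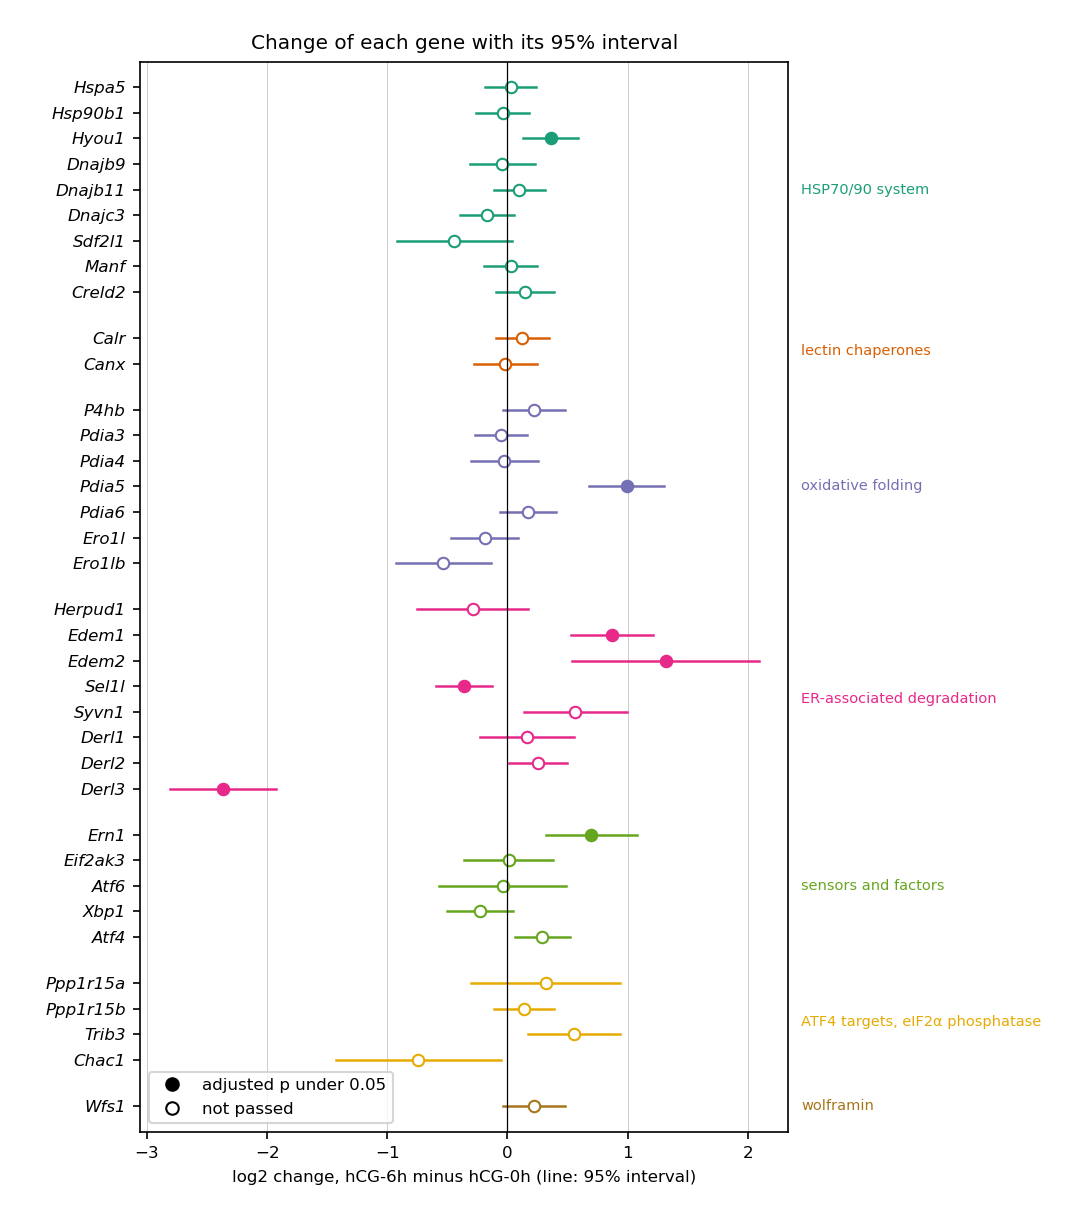
Log2 change (hCG-6h minus hCG-0h) of each gene as a point with its 95% interval as a line, 3 samples a group, with filled points for adjusted p under 0.05. The 7 filled points are Hyou1, Pdia5, Edem1, Edem2, Sel1l, Derl3 and Ern1. Of them 4 belong to ER-associated degradation, 50% of its genes against 21.3% of all genes called.

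**Figure D3:**
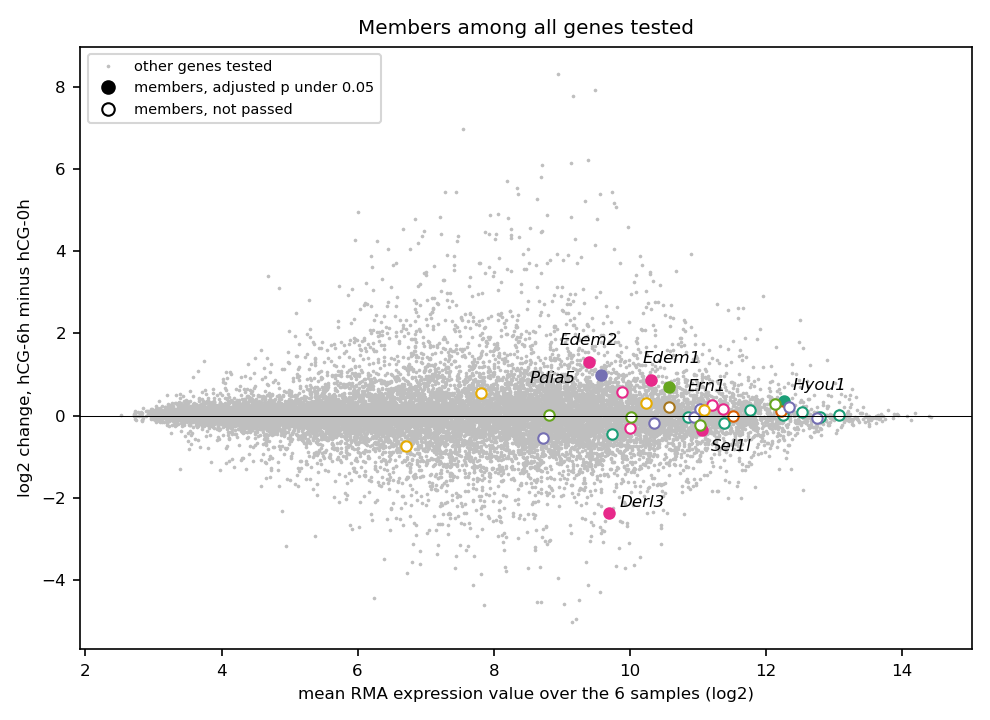
Log2 change (vertical axis) against the mean RMA value over the 6 samples (log2, horizontal axis) for the other genes tested (grey) and the 36 members (coloured, filled where they passed). The members lie in the middle and right of the cloud, all above the limit of 6.08 for dim genes, and mostly close to a change of 0.

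Promoters of 14 of these genes held short sequences through which the response is known to act, and 8 are printed here to show the letters in genes that fell, did not pass or are leading chaperones. RefSeq promoter windows (GRCm38.p6, 250 bases before to 50 after the annotated start) were found for 31 of the 36 genes. Each was searched on both strands for the ER stress response element ERSE (CCAAT, then 9 bases of any kind, then CCACG), which ATF6 and XBP1 bind together with NF-Y, and for ERSE-II (ATTGG, 1 base, CCACG). The other patterns were UPRE, TGACGTGG, an XBP1 and ATF6 site, and CARE, TGATGNAA, the site of ATF4 with C/EBP factors. ERSE and UPRE share letters (CCACG reads CGTGG on the other strand), but no matches overlapped in the windows of the members. Exact ERSE letters stood in 10 of the 31 members, against 0.137% of all 27025 genes with windows of the same length. ERSE-II stood in 2 (0.0444% of all genes), CARE in 3 (4.51%) and UPRE in none (0.714%). The members were chosen for known roles that include this response, so these shares are no independent evidence. The stretches below read 5′ to 3′ along the gene, end before the start site, and show the matched letters in capitals.
Hspa5, chr2:34772010-34772058, plus strand, ERSE: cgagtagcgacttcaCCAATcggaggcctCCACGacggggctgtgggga
Hsp90b1, chr10:86705518-86705671, minus strand, ERSE in each orientation: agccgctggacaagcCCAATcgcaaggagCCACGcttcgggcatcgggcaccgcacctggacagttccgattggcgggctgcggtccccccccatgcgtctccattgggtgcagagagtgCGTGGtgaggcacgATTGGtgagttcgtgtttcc
Calr, chr8:84847060-84847108, minus strand, ERSE reversed: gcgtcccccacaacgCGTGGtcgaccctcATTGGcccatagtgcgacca
Canx, chr11:50325785-50325833, minus strand, ERSE: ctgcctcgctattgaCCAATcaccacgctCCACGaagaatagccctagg
Syvn1, chr19:6046517-6046565, plus strand, ERSE: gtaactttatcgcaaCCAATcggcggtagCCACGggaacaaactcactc
Herpud1, chr8:94386302-94386402, plus strand, CARE reversed, then ERSE-II: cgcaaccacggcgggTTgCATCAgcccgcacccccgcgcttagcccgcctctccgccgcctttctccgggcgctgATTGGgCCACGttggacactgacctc
Derl3, chr10:75893227-75893275, plus strand, ERSE reversed: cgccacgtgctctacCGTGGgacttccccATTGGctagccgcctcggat
Chac1, chr2:119351034-119351071, plus strand, CARE reversed: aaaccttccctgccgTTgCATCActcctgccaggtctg

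The other members with ERSE letters were Dnajc3, Creld2, Pdia6 and Ero1lb, and Dnajb11 held ERSE-II just after its start. Among the 12 members with ERSE or ERSE-II letters, none rose, Derl3 fell and 11 did not pass (10.8% of all genes rose and 10.5% fell). The log2 changes of those 11 ran from -0.53 for Ero1lb to 0.57 for Syvn1, with a median of 0.027. Of the 19 members whose windows lacked both patterns, 4 rose (Pdia5, Edem1, Edem2 and Ern1) and Sel1l fell, with a median log2 change of 0.22. The difference between these 2 sets was not tested, a match is no proof of binding, and elements outside the window or with altered letters were not searched. The 5 members without a window (Manf, Derl1, Ppp1r15b, Hyou1 and Atf6) are in neither set, and 1 of them, Hyou1, rose.

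The central chaperones showed changes close to 0. Hspa5, the HSP70 of the ER, read 13.04, 13.08 and 13.05 in the hCG-0h samples and 13.06, 13.10 and 13.09 in the hCG-6h samples (log2 RMA values, in sample order 1 to 3, as in all such lists below). Its groups overlapped, and its log2 change of 0.027 had a 95% interval from -0.19 to 0.24, a span of 0.879-fold to 1.18-fold. Hsp90b1, the HSP90 of the ER, read 12.77, 12.78 and 12.89 at hCG-0h and 12.77, 12.77 and 12.78 at hCG-6h. Its interval ran from 0.834-fold to 1.14-fold. Such intervals, like those below, are per gene and not adjusted for the number of genes, so one may leave out 0 where the adjusted p misses the threshold.

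Hyou1, the large HSP70-like partner that exchanges nucleotide on BiP, rose. It was the 1 call among the 9 genes of this arm, 11.1% against 21.3% of all genes. It read 12.03, 12.13 and 12.09 at hCG-0h and 12.47, 12.37 and 12.49 at hCG-6h. The groups did not overlap, and the log2 change was 0.36 ± 0.10 (SE, n = 3 each), or 1.28-fold (limma adjusted p = 0.0392). Leaving out any 1 of the 6 samples ended this call (adjusted p from 0.0700 to 0.115), although the change then still lay between 0.33 and 0.40.

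Of the J-domain proteins, which bring clients to BiP, none passed. Dnajb11 was slightly higher at hCG-6h without overlap (12.48, 12.46 and 12.50 against 12.60, 12.54 and 12.60), with a log2 change of 0.10 and an adjusted p of 0.509 by limma. Dnajc3, a J-domain protein also known to inhibit PERK, was slightly lower without overlap (11.46, 11.53 and 11.43 against 11.30, 11.36 and 11.26), with a log2 change of -0.17 (limma adjusted p = 0.281). Dnajb9, a J-domain protein induced by the response and a repressor of IRE1, overlapped between groups (log2 change -0.043). Sdf2l1, a partner of Dnajb11, read 9.65, 10.15 and 10.06 at hCG-0h and 9.86, 9.36 and 9.31 at hCG-6h. Here hCG-6h sample 1 lay among the hCG-0h values while the other 2 lay below them, and the log2 change of -0.44 did not pass (limma adjusted p = 0.181). Manf, a secreted protein that binds BiP, and Creld2, a disulfide isomerase-like protein, had log2 changes of 0.027 and 0.15 with overlapping groups. Both are much used as markers of ER stress.

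The lectin chaperones did not pass. Calr, calreticulin, read 12.15, 12.13 and 12.19 at hCG-0h and 12.27, 12.33 and 12.24 at hCG-6h, apart but by a log2 change of just 0.12 (limma adjusted p = 0.419). Canx, calnexin, read 11.41, 11.50 and 11.67 against 11.56, 11.53 and 11.44, with overlap and a log2 change of -0.017.

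Among the 7 genes of oxidative folding, Pdia5 rose and 6 did not pass, a share called of 14.3% against 21.3% of all genes. Pdia5, a protein disulfide isomerase reported to reduce ATF6, read 8.84, 9.25 and 9.14 at hCG-0h and 10.03, 10.08 and 10.10 at hCG-6h. All hCG-6h samples lay above all hCG-0h samples, with a log2 change of 0.99 ± 0.13 (SE), or 1.99-fold (limma adjusted p = 0.00247). The call held whichever of the 6 samples was omitted (adjusted p from 0.00459 to 0.0129). The other isomerases had small changes that did not pass. P4hb, the founding disulfide isomerase, had a log2 change of 0.22 (12.08, 12.31 and 12.28 against 12.50, 12.38 and 12.45, without overlap), Pdia6 of 0.17, Pdia3 of -0.053 and Pdia4 of -0.027. The interval of Pdia3 ran from 0.830-fold to 1.12-fold and that of Pdia4 from 0.809-fold to 1.19-fold.

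The ERO1 oxidases, which pass electrons from the isomerases to oxygen, both had changes below 0. Ero1lb read 9.01, 8.97 and 9.01 at hCG-0h and 8.53, 8.12 and 8.74 at hCG-6h, lower in every hCG-6h sample, with a log2 change of -0.53 ± 0.17 (SE) that missed the threshold (limma adjusted p = 0.0660). It passed without hCG-6h sample 3 (adjusted p = 0.0387). Ero1l overlapped between groups, with a log2 change of -0.19.

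ER-associated degradation held 4 of the 7 calls, in both directions, which is 50% of its genes against 21.3% of all genes. In the fit without the dim genes, where 31.6% of genes were called, these 4 calls were kept. Of the 8 degradation genes, Edem1 and Edem2 rose, Sel1l and Derl3 fell, and Herpud1, Syvn1, Derl1 and Derl2 did not pass. Edem1 and Edem2 are mannosidase-like proteins that mark misfolded glycoproteins for removal. Edem1 read 9.60, 9.94 and 10.08 at hCG-0h and 10.70, 10.71 and 10.82 at hCG-6h. The change was 0.87 ± 0.14 on the log2 scale (SE), or 1.83-fold (limma adjusted p = 0.00646), and was called with any 1 sample left out (adjusted p from 0.00944 to 0.0274).

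Edem2 varied more within each group. It read 8.71, 9.19 and 8.31 at hCG-0h and 10.10, 10.58 and 9.48 at hCG-6h, so the lowest hCG-6h value lay just above the highest hCG-0h value. The log2 change was 1.32 ± 0.33 (SE), or 2.49-fold, with an interval from 1.45-fold to 4.27-fold (limma adjusted p = 0.0304). The call ended without hCG-0h sample 1, hCG-0h sample 3, hCG-6h sample 1 or hCG-6h sample 2 (adjusted p from 0.0738 to 0.0900).

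Derl3, one of 3 derlins that form or line the path out of the ER, had the largest change of the 36 genes. It read 10.91, 10.79 and 10.94 at hCG-0h and 8.74, 8.10 and 8.70 at hCG-6h. It fell by 2.37 on the log2 scale (SE 0.19), to a level 5.16-fold lower (limma adjusted p = 0.000278), and the call held with each sample left out in turn (adjusted p from 0.000443 to 0.00247). The other derlins did not pass in this fit. Derl2 read 11.04, 11.18 and 11.01 at hCG-0h and 11.40, 11.27 and 11.32 at hCG-6h, a log2 change of 0.25 (limma adjusted p = 0.136). Derl1 overlapped in its brightest probe set, with a log2 change of 0.17, but its other probe sets differ, as given below.

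Sel1l and Syvn1 encode partners, the scaffold SEL1L and the ubiquitin ligase HRD1, and their values lay on opposite sides of 0. Sel1l read 11.20, 11.26 and 11.28 at hCG-0h and 10.81, 10.98 and 10.87 at hCG-6h, a log2 change of -0.36 ± 0.10 (SE), 1.28-fold lower (limma adjusted p = 0.0428). The call ended with any 1 sample left out (adjusted p from 0.0651 to 0.124). Syvn1 read 9.51, 9.41 and 9.88 at hCG-0h and 9.90, 10.39 and 10.21 at hCG-6h, all higher but nearly touching, and its log2 change of 0.57 ± 0.18 (SE) did not pass (limma adjusted p = 0.0692). It passed without hCG-0h sample 3 (adjusted p = 0.0465). Herpud1, which ties the ligase to the derlins and is strongly induced by ER stress, read 10.24, 10.11 and 10.11 against 10.26, 9.82 and 9.51. As with Sdf2l1, hCG-6h sample 1 was the high one, and the log2 change of -0.29 did not pass.

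Of the 5 sensors and transcription factors, Ern1 alone rose, a share called of 20% against 21.3% of all genes. Ern1, which encodes the nuclease IRE1, read 10.03, 10.20 and 10.44 at hCG-0h and 10.73, 10.88 and 11.16 at hCG-6h. The groups did not overlap, and the log2 change was 0.70 ± 0.16 (SE), or 1.62-fold (limma adjusted p = 0.0230). The call ended when hCG-0h sample 1, hCG-0h sample 2, hCG-6h sample 2 or hCG-6h sample 3 was omitted (adjusted p from 0.0576 to 0.0682). Xbp1, whose mRNA IRE1 splices, read 11.13, 11.10 and 11.19 at hCG-0h and 11.04, 10.96 and 10.73 at hCG-6h. It was lower in every hCG-6h sample by a log2 change of -0.23 that did not pass (limma adjusted p = 0.226). The other Xbp1 probe sets overlapped between groups, with log2 changes of -0.023, -0.16 and -0.057. These gene values do not separate spliced from unspliced Xbp1.

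The other sensors and ATF4 did not pass. Eif2ak3, which encodes PERK, read 8.75, 8.87 and 8.81 at hCG-0h and 8.88, 9.07 and 8.51 at hCG-6h, a log2 change of 0.010 with an interval from 0.777-fold to 1.31-fold. Atf6 read 9.54, 10.28 and 10.30 against 9.94, 10.17 and 9.89, with hCG-0h sample 1 apart below the other hCG-0h samples, and a log2 change of -0.040. Atf4, the transcription factor of the PERK branch, which is controlled mainly at translation, read 12.01, 12.03 and 11.93 against 12.27, 12.22 and 12.35. All hCG-6h samples were higher, by a log2 change of 0.29 ± 0.10 (SE), but the change missed the threshold (limma adjusted p = 0.0802). The other Atf4 probe sets overlapped between groups, with log2 changes of 0.067 and -0.013.

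None of the 4 members that are ATF4 targets or eIF2α phosphatase subunits passed, and the 2 nearest to the threshold of p lay on opposite sides of 0. Trib3, a pseudokinase induced by ATF4 and CHOP, read 7.59, 7.55 and 7.46 at hCG-0h and 8.42, 7.88 and 7.96 at hCG-6h. Every hCG-6h sample was higher, with a log2 change of 0.55 ± 0.16 (SE) just short of the threshold (limma adjusted p = 0.0517). Chac1, a glutathione-degrading enzyme induced by ATF4, read 6.70, 7.18 and 7.36 against 6.93, 6.07 and 6.02. With hCG-6h sample 1 among the hCG-0h values, the log2 change of -0.74 ± 0.29 (SE) did not pass (limma adjusted p = 0.125), and without that sample it was -1.03 and passed (adjusted p = 0.0260).

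The phosphatase subunits reverse the translation block of PERK. Ppp1r15a, the inducible one (GADD34), read 10.47, 10.32 and 9.46 at hCG-0h and 10.41, 10.33 and 10.47 at hCG-6h. Only hCG-0h sample 3 stood apart, and without it the log2 change was 0.0083 in place of 0.32. Ppp1r15b, the constitutive one, had a log2 change of 0.14 with overlapping groups. Wfs1, wolframin of the ER membrane, read 10.43, 10.37 and 10.61 against 10.64, 10.66 and 10.77, without overlap but with a log2 change of 0.22 that did not pass (limma adjusted p = 0.220).

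Other probe sets of the same genes gave a second reading from the same 6 samples. The 36 genes had 83 probe sets with 1 gene symbol, and 25 genes had more than 1. When each of 45101 probe sets was tested by itself, all 4 other probe sets of Sel1l fell, with log2 changes from -0.48 to -0.67, although the brightest one missed the threshold there (limma adjusted p = 0.0631). All 3 other probe sets of Derl1 rose, with log2 changes of 0.52, 0.64 and 0.73, while the brightest had 0.17. The second probe set of Edem1 rose by 0.88 on the log2 scale, beside the 0.87 of the brightest. That of Edem2 had a log2 change of 1.09 and did not pass.

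For Hyou1, 1 of 3 probe sets rose in that fit, with a log2 change of 0.57. All 5 probe sets of Ern1 had changes above 0, from 0.36 to 0.91, and 1 of them passed. Ero1lb had a probe set that fell by 1.01 on the log2 scale (8.17, 8.19 and 7.89 against 7.22, 7.21 and 6.79), next to its brightest at -0.53. All 5 of Dnajc3 were below 0, from -0.17 to -0.60, and none passed. The 3 of Hspa5 stayed between -0.053 and 0.037. Derl3 and Pdia5 had 1 probe set each, so their changes have no second reading.

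**Figure D4:**
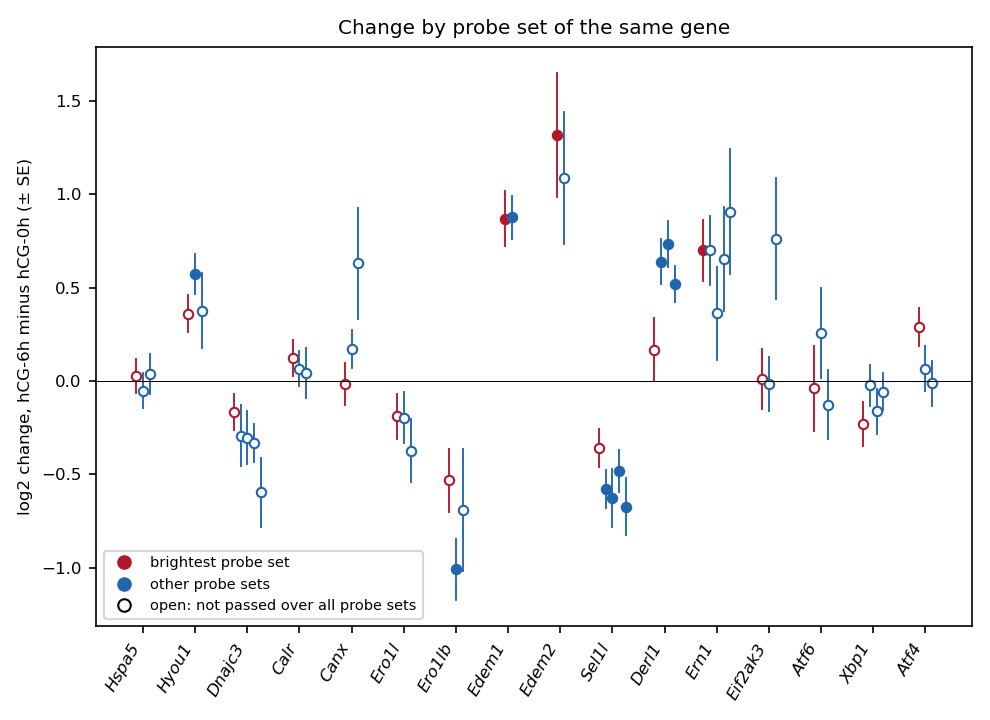
Log2 change with its SE (vertical axis) of each probe set of the genes with 3 or more probe sets, and of called genes with 2, fitted over all probe sets. Red marks the brightest probe set used for the gene and filled points passed in this fit, where Hyou1 and Sel1l pass in other probe sets but not in the brightest, and 3 blue points of Derl1 are filled above an open red one.

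Beyond the members, 140 measured genes of neighbouring lists were counted in the same fit. Of these, 43 were called (30.7%, 29 that rose and 14 that fell, against 21.3% of all genes). In the fit without the dim genes, 32 rose and 14 fell, and 31.6% of all genes tested there were called, so no clear excess remained. With the samples left out in turn, 15 to 23 rose and 7 to 12 fell. Genes of protein entry into the ER moved up where they passed. In the list of translocon, signal peptidase and signal sequence receptor, 5 of 17 rose and none fell, with a median log2 change of 0.33. The 5 rises came to 1 without hCG-0h sample 2 and to 2 without hCG-0h sample 3 or any 1 hCG-6h sample. Tram1, which helps chains enter the translocon, rose 1.62-fold (10.55, 10.81 and 10.68 against 11.36, 11.34 and 11.43), and Spcs3, a signal peptidase subunit, 1.41-fold. Of 19 genes of N-glycosylation and glycan trimming, 4 rose and none fell, with Man1b1, an ER mannosidase of the degradation path, at 1.84-fold and the cargo lectin Lman2 at 1.50-fold. The median there was 0.027, and the 4 rises came to 2 without any 1 sample other than hCG-0h sample 3, which left 3.

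Other folding enzymes were mixed. In the list of further disulfide isomerases, peroxidases and prolyl isomerases, 3 of 18 rose and 3 fell (33.3% called). Over all genes 21.3% were called, and 31.6% in the fit without the dim genes. Qsox1, a disulfide-forming oxidase of secreted proteins, rose 2.88-fold and Tmx3, a membrane-bound isomerase, 2.71-fold, while Tmx4 and Pdia2 were 1.65-fold and 1.59-fold lower. Of 16 further ER chaperones and exchange factors, 3 rose and 2 fell (31.2% called). None rose without any 1 hCG-6h sample and 1 rose without any 1 hCG-0h sample, while 1 fell without hCG-0h sample 1, hCG-6h sample 1 or hCG-6h sample 2. Sil1, which like Hyou1 exchanges nucleotide on BiP, read 10.08, 10.07 and 10.13 at hCG-0h and 8.94, 8.25 and 9.19 at hCG-6h, 2.46-fold lower (limma adjusted p = 0.00915). Cnpy2 was 1.33-fold lower, Nucb2 was 1.64-fold higher and Dnajc10, a disulfide reductase, was 1.34-fold higher, each past the threshold.

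In the list of other degradation genes, 3 of 20 rose and 3 fell (30% called, against 21.3% of all genes). None fell without hCG-0h sample 2, hCG-6h sample 2 or hCG-6h sample 3, and 1 fell without hCG-0h sample 3 or hCG-6h sample 1. The rises came to 1 without hCG-0h sample 3, hCG-6h sample 1 or hCG-6h sample 3. Vimp, a partner of the derlins, rose 1.47-fold and the conjugating enzyme gene Ube2j1 1.37-fold. Rnf139, a ubiquitin ligase, and Fam8a1, a cofactor of HRD1, were 1.43-fold and 1.30-fold lower. Among 17 regulators of the response, Tmed2 rose 1.74-fold and 4 fell (29.4% called), among them Yod1 at 1.54-fold lower and Mbtps2 at 1.47-fold lower. In this list none rose without hCG-0h sample 2 or 3 or without hCG-6h sample 1 or 3, 2 rose without hCG-0h sample 1, and 2 fell without hCG-0h sample 2, hCG-0h sample 3, hCG-6h sample 1 or hCG-6h sample 2. Mbtps2 and Mbtps1 encode the proteases that cut ATF6, and Mbtps1 was 1.39-fold lower (it and Map3k5, 1.46-fold lower, were picked for mention once their values were known).

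The list of other integrated stress response genes and ATF4 targets had the highest share called of these lists. In it 9 of 19 rose and 2 fell (57.9% called), with a median log2 change of 0.50. Over all genes 21.3% were called, and 31.6% in the fit without the dim genes. With samples omitted singly, 7 or 8 of these rose, and 2 fell except without hCG-6h sample 2, where 1 did. Like the other lists, this list was chosen with earlier results of these data known, so its share called is no independent evidence. Slc7a11, the cystine transporter, read 3.65, 4.67 and 5.95 at hCG-0h and 8.98, 9.05 and 9.35 at hCG-6h. All its hCG-0h values lay under 6.08, the limit for dim genes, so its 20.7-fold rise is approximate. Nupr1, a stress-induced nuclear protein, rose 5.02-fold (11.28, 11.41 and 11.31 against 13.65, 13.65 and 13.68). Slc7a5, an amino acid transporter that pairs with Slc3a2, was 3.22-fold lower, and Shmt2, a mitochondrial enzyme of serine use, 1.50-fold lower. Slc3a2 itself rose 2.27-fold and was picked for mention once its values were known. Ddit3, which encodes CHOP, the factor best known for cell death under ER stress, read 8.65, 8.58 and 8.57 against 8.72, 8.74 and 8.41, with overlap and a log2 change of 0.023, and was picked for mention once its values were known. In the cytosolic heat shock list, 1 of 14 genes rose (Hspa4l, 1.69-fold) and none fell, a share called of 7.14%.

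**Figure D5:**
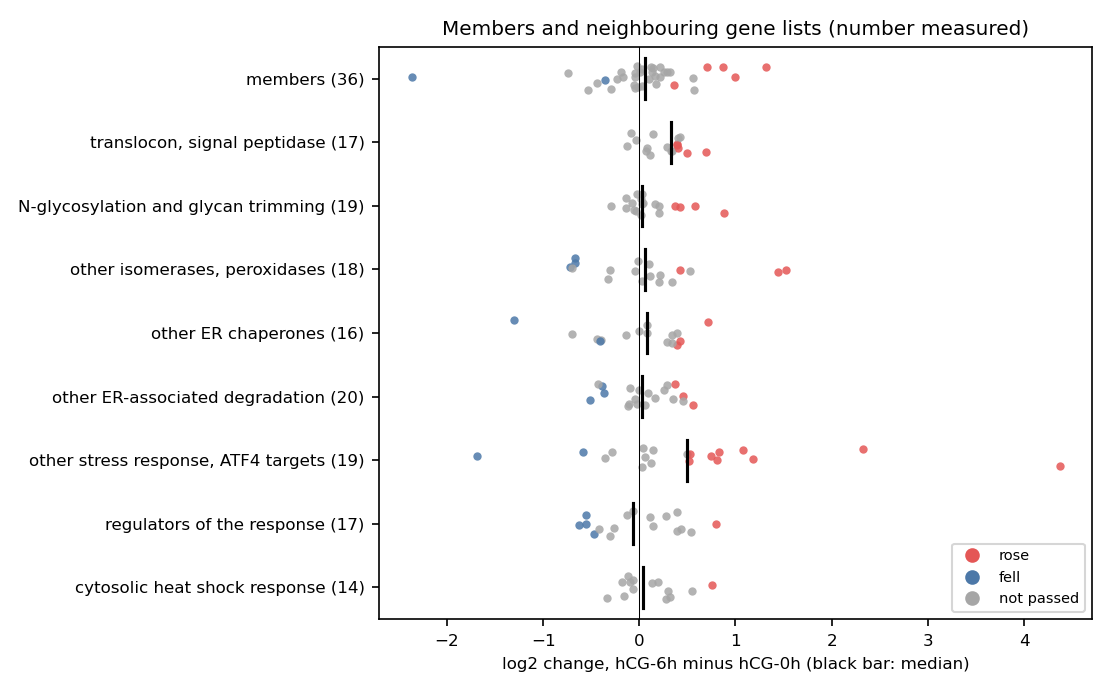
Log2 change (horizontal axis) of each measured gene in the 36 members and in the 8 neighbouring lists, coloured by call, with a black bar at the median of each list. The medians of the translocon list (0.33) and of the stress response and ATF4 list (0.50) lie to the right of 0, and that of the members (0.063) lies close to it.

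Markers of cumulus and granulosa cells were present in all samples, and none of the 12 measured lay under 6.08 on average. Of them 7 fell (among them the receptor genes Fshr and Amhr2), 58.3% against 10.5% of all genes. Of 15 oocyte markers, 11 lay under 6.08 on average and Ooep rose. Their summed log2 values were 79.75 to 82.31 at hCG-0h and 84.76 to 86.08 at hCG-6h. Zp2 was lowest, at 3.56 to 3.77, where the lowest value of any probe set was 2.43. Without detection calls, such low values do not show whether the RNA was present. Summed values were 43.49 to 45.06 and 45.16 to 46.80 for 8 blood and immune markers, 24.87 to 27.89 and 27.62 to 28.99 for 5 endothelial ones, and 22.29 to 23.88 and 21.53 to 21.88 for 3 theca ones. Of the 3 theca markers, Ptch1 fell by 0.92 on the log2 scale (limma adjusted p = 0.00293). No blood, immune or endothelial marker was called. The part of other cell types in the changes above was not tested.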

How the data were processed

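Expression was measured on single-colour Affymetrix arrays in 6 samples, 3 a group, from RNA amplified with a whole-transcriptome kit, as the labels' protocols say. The values deposited by the authors are log2 expression values for 45101 probe sets, and GCOS, Affymetrix Expression Console 1.1 and RMA are named in the submitters' processing notes. RMA subtracts background, quantile-normalises and summarises probes. Array medians lay between 6.43 and 6.46. Detection calls and a genome build for the arrays are not given in the sources used here.

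Probe sets were named from the platform's annotation. Those with 1 symbol (34958) were used, 932 had several and 9211 were not listed, and per gene the one with the highest mean was taken. The gene fit used limma 3.58.1 in R 4.3.3 (lmFit, eBayes, group as the only term, no filter), two-sided, with Benjamini-Hochberg adjustment over 18194 genes and a threshold of 0.05. The scripts were tested on simulated data, with 50 genes changed at each size. Log2 changes of 0.25, 0.5, 1 and 2 were recovered in 0%, 2%, 48% and 78%, with 6 false calls among 70. Far fewer genes changed there than were called in the real data, which makes the adjusted threshold stricter, so these shares do not carry over directly. All members are named, and per neighbouring list up to 2 genes that rose and 2 that fell with the largest changes. Members and lists were chosen with earlier results of these data known. Of 148 genes in those lists, 140 were measured. The alternatives were a block for the sample number, a variance trend with robust fit, repeated quantile normalisation, median centring, no dim genes, array weights, the mean of probe sets, single probe sets, hCG-6h sample 1 alone and each sample left out. With 3 samples a group, array number limits the precision.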

Additional observations from a re-analysis of the deposited data

How the results depend on the processing

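Of 540 values of the members' log2 changes under 15 other settings, 477 kept direction and side of the threshold, 31 lost the call, 12 gained one and 20 turned sign, none of which passed the test. Derl3 was called under all 15 settings, and Pdia5 and Edem1 under all but hCG-6h sample 1 alone. The main counts were 5 members higher and 2 lower, with 29 and 14 other pathway genes. With single samples left out they were 2 to 4 and 1 to 2, and 15 to 23 and 7 to 12. With a trend and robust variance 9 members were higher, P4hb, Syvn1, Derl2 and Atf4 being added. Member falls came to 1 with the replicate block and with every probe set on its own. With hCG-6h sample 1 alone 1 was higher (Trib3) and 1 lower (Derl3), and 3 and 2 other pathway genes, the lone sample being assumed to vary like the other group. Sample numbers did not pair the samples: deviations of same-numbered samples correlated at 0.011, -0.016 and 0.029, and 1 of 3 hCG-0h samples correlated best with its own number. The replicate block gave 4 members higher and 1 lower, and 17 and 9 other pathway genes. Signs that turned were those of Eif2ak3 with repeated quantile normalisation (-0.014) and array weights (-0.0026), of Canx (0.26), Pdia3 (0.10), Pdia4 (0.24) and Atf6 (0.030) with the mean of probe sets, and of Canx (0.033), Pdia4 (0.070) and Herpud1 (0.11) with hCG-6h sample 1 alone. With single samples left out the ranges were -0.12 to 0.0050 for Dnajb9, -0.075 to 0.055 for Canx, -0.10 to 0.048 for Pdia4, -0.12 to 0.17 for Eif2ak3 and -0.29 to 0.090 for Atf6. With the mean of probe sets Ern1 was not called and Ero1lb, Derl1 and Trib3 were. The cause of these differences was not tested.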
